A study of Arabidopsis thaliana with 6 samples.

Results

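The genes described here are the 146 genes of the Arabidopsis mitochondrial genome in the deposited tables, chosen as every ID that starts with ATMG, out of 33602 genes in all. The RNA came from whole Col-0 seedlings grown in continuous light at 22 °C, which the labels give as 12 days old, while the study's methods give an older age. Wild type (WT, replicates 2, 4 and 5) was compared with the acinus-2 pnn double mutant (acinus-2 pinin-1, replicates 6, 7 and 12), which carries T-DNA insertions in AtACINUS and AtPININ, both genes of nuclear RNA-binding protein complexes. Each genotype has 3 libraries, described as biological replicates, and 1 double mutant combination was sequenced. At least 1 read was counted on 143 of the 146 genes, and 3 had none in any library.

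Plant mitochondria keep a small genome that encodes some subunits of the respiratory chain, some proteins that build cytochrome c, part of their ribosome and their own ribosomal RNA (rRNA). Nearly all other mitochondrial proteins, including the RNA polymerases and most of the splicing factors that work on these transcripts, are made from nuclear genes and imported. Several mitochondrial genes, above all the nad genes of complex I, are interrupted by group II introns. Others are scattered over the genome in pieces whose transcripts are joined in trans, which is why nad1, nad2 and nad5 each have several IDs here. Of the 146 genes, 41 were placed in 8 lists by the role of their product, and 105 lie outside these lists.

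The tables hold 18 mitochondrial introns in 12 genes. Group II introns mostly end with other letters than the introns that the nuclear spliceosome removes, and many also begin with others. A mapping program has to accept those letters to see a spliced read. The ends of 5 of the 18 introns, from cox2, nad1, rps3, nad4 and ccmFC, are shown because the counts of spliced reads for these introns are compared below. Each is given 5′ to 3′ from the RefSeq TAIR10.1 mitochondrial sequence (MT), with the first 5 or the last 2 bases of the intron in capitals.
cox2 intron 1, start, MT:6956-6978, plus strand: ctttacgcGTGCGcccggaaaca
cox2 intron 1, end, MT:8292-8314, plus strand: aaagctgacccctATctatcgtc
nad1 intron 2, start, MT:58390-58412, plus strand: ttcttattGTGCGccttgtgagc
nad1 intron 2, end, MT:59275-59297, plus strand: gggacaccccggtATactgtact
rps3 intron 1, start, MT:20231-20253, plus strand: ttcagtgaGGGCGaccgcgaaag
rps3 intron 1, end, MT:21807-21829, plus strand: cactattgactctATttattatt
nad4 intron 1, start, MT:215087-215109, minus strand: cctatgttGTGCGgagcggagta
nad4 intron 1, end, MT:213622-213644, minus strand: caccccttactctACcattatta
ccmFC intron 1, start, MT:190254-190276, plus strand: cttctgtcGTGCGacccggcggc
ccmFC intron 1, end, MT:191206-191228, plus strand: gcggcttaggtcaACtaacacaa
Of the 18 introns, 9 began with GTGCG on the transcript strand and 6 (33.3% of 18) with GGGCG. None of the 18 ended with AG, and 15 (83.33%) ended with AC or AT. Among 131152 nuclear introns of annotated transcripts, 0.49% began with GTGCG, none with GGGCG, 99.84% ended with AG and 0.13% with AC or AT.

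Each library held between 18890178 and 27622690 gene reads, and between 143178 and 200166 of these were on mitochondrial genes. Counts are given as CPM, the usual scaling of reads to a common library size, here with the TMM factors of edgeR. In AtACINUS the count was 99.1, 99.3 and 97.3 CPM in WT and 34.3, 34.9 and 33.0 in acinus-2 pnn. In AtPININ the count over the whole gene was higher in acinus-2 pnn (80.0, 101 and 84.1 CPM, against 53.3, 48.2 and 47.1 in WT). That excess lay in exons 1 to 3 of its 11 exons, whereas exons 4 to 11 held 704, 938 and 964 reads in WT and 380, 344 and 435 in acinus-2 pnn. Both mutated genes thus gave fewer reads over part or all of their length in the libraries labelled as mutant.

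The share of the library on mitochondrial genes was higher in every acinus-2 pnn library than in any WT library. These genes held 0.758%, 0.675% and 0.685% of the gene reads in WT replicates 2, 4 and 5 and 0.790%, 0.778% and 0.785% in acinus-2 pnn replicates 6, 7 and 12. The mutant libraries all lay above the WT libraries, with means of 0.784% ± 0.00606 and 0.706% ± 0.0451 (SD, n = 3 each) and a ratio of 1.11. The 2-sided exact permutation test gave p = 0.1, the smallest value that 3 against 3 libraries allow. In whole seedlings, a change in the number of mitochondria or of cells rich in them and a change in RNA per mitochondrion cannot be told apart.

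Most of this share was rRNA. The gene for the small-subunit rRNA, rrn18, took 0.439%, 0.372% and 0.356% of the gene reads in WT and 0.392%, 0.393% and 0.399% in acinus-2 pnn. These groups overlapped (exact permutation test, p = 1.0), and WT replicate 2 held the highest value. ATMG00020, kept in the rRNA list but not named in the sources used here, took 0.237%, 0.222% and 0.241% in WT and 0.284%, 0.283% and 0.276% in acinus-2 pnn. Its mutant values all lay above WT, with a ratio of 1.20 (exact permutation test, p = 0.1, the smallest possible). Without the 3 genes of the rRNA list, the share was 0.0821%, 0.0818% and 0.0875% in WT and 0.114%, 0.102% and 0.109% in acinus-2 pnn. The ratio of the means was then 1.29, again without overlap between genotypes (exact permutation test, p = 0.1).

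The genes in the other 7 role lists, nearly all of which are known to encode proteins, stood further apart between genotypes. Their 38 members took 0.0350%, 0.0360% and 0.0382% of the gene reads in WT and 0.0528%, 0.0472% and 0.0557% in acinus-2 pnn. The ratio was 1.43, and no mutant library overlapped with WT (exact permutation test, p = 0.1). Within the mitochondrial reads, the same 38 genes made up 5.17% on average in WT and 6.62% in acinus-2 pnn, while rrn18 made up 55.0% and 50.3%. Both of these within-genome differences were without overlap between genotypes (exact permutation test, p = 0.1 each). For the other organelle, the chloroplast genes held 13.5%, 11.2% and 11.3% of the gene reads in WT and 12.1%, 11.8% and 10.5% in acinus-2 pnn. There the groups overlapped and the ratio was 0.954 (exact permutation test, p = 0.7).

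**Figure D1:**
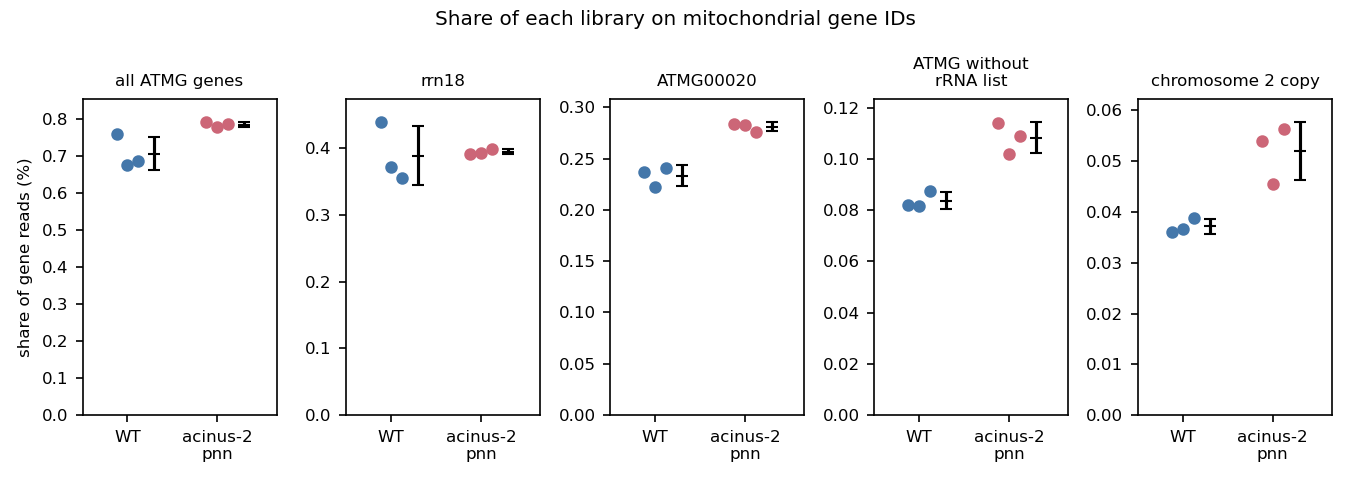
Share of the gene reads of each library (y axis, percent, from 0) on all mitochondrial (ATMG) genes, on rrn18, on ATMG00020, on mitochondrial genes without the rRNA list and on the gene models of the chromosome 2 copy. Points are libraries (WT blue, acinus-2 pnn red) and bars are means with SD. The genotypes overlap for rrn18 only, and the ratio is 1.11 for all mitochondrial genes and 1.29 without the rRNA list.

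Gene by gene, counts were compared with the quasi-likelihood test of edgeR over all 20962 genes that passed its filter on low counts, with Benjamini-Hochberg adjustment over all of them. Of the 146 mitochondrial genes, 74 passed this filter. At an adjusted p under 0.05, 37 of the 74 rose and none fell, where 22.5% of all tested genes rose and 23.6% fell. The count of mitochondrial genes that fell was also 0 at an unadjusted p under 0.05 and 0 with DESeq2. The median log2 fold change was 0.47 for the mitochondrial genes, between −0.46 and 1.39, and 0.00 for all tested genes. The fold change was positive for 69 of the 74 and negative for 5. Mutant libraries lay wholly above WT for 44 of the 74 genes and wholly below for 1, against 27.0% and 28.2% of all genes.

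The changes were small. At an adjusted p under 0.02 and a fold above 2, the thresholds in the study's methods (its results name a looser p), 4 mitochondrial genes were called higher and 0 lower, where 4.29% of all genes were called higher and 4.88% lower. None of the 41 genes with a role list was among these 4. The count of 4 went down to 0 without WT replicate 4 and to 1 without WT replicate 2 or acinus-2 pnn replicate 12, and to 2 without acinus-2 pnn replicate 6. When the total of mitochondrial reads was used as library size, so that a change is relative to the other mitochondrial genes and mostly to rRNA, 25 of the 74 genes still rose and none fell. On that scale the median over the 74 genes was 0.33 and the median over all genes −0.15. The share of all genes that rose or fell on that scale is not given here, so the count of 25 stands without a background.

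The levels within the genome spanned a wide range. Per length, in the deposited RPKM (reads per kilobase of exon, scaled to the mapped reads of the library, mean ± SD of 3 WT libraries), rrn18 stood at 1660 ± 175, ATMG00030 at 1030 ± 32.0 and ATMG00020 at 750 ± 25.3. Below these, nad4L followed at 34.3 ± 1.70 RPKM, a complex I subunit, and atp1 at 27.7 ± 2.69 RPKM, the alpha subunit of ATP synthase. Next came a group whose neighbours did not differ beyond their spread. Among its members were rpl16 at 22.6 ± 1.51 RPKM, rps3 at 21.3 ± 1.56 RPKM and cox1 at 18.5 ± 2.25 RPKM. Other members lay between rps3 and cox1, such as the nad5 piece ATMG00060 at 19.1 ± 1.26 RPKM and nad9 at 18.7 ± 0.552 RPKM. Among the role-list genes with a name, the lowest were ccmC at 0.761 ± 0.230 RPKM and ccmB at 1.46 ± 0.855 RPKM. Many IDs outside the role lists lay lower still. The level of ATMG00665, a nad5 piece, was 23.6 ± 5.43 RPKM but rested on few reads and a very short exon. This order holds for reads as they were assigned in the tables. Of the reads shared out between atp1 and its copy on chromosome 2, 39.8% to 42.7% were on atp1 in WT, and of those between ccmC and its copies, 11.5% to 20.6% were on ccmC. Neither nad4L nor ccmB has a copy, so that the place of atp1 below nad4L and of ccmC below ccmB rests on this assignment.

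**Figure D2:**
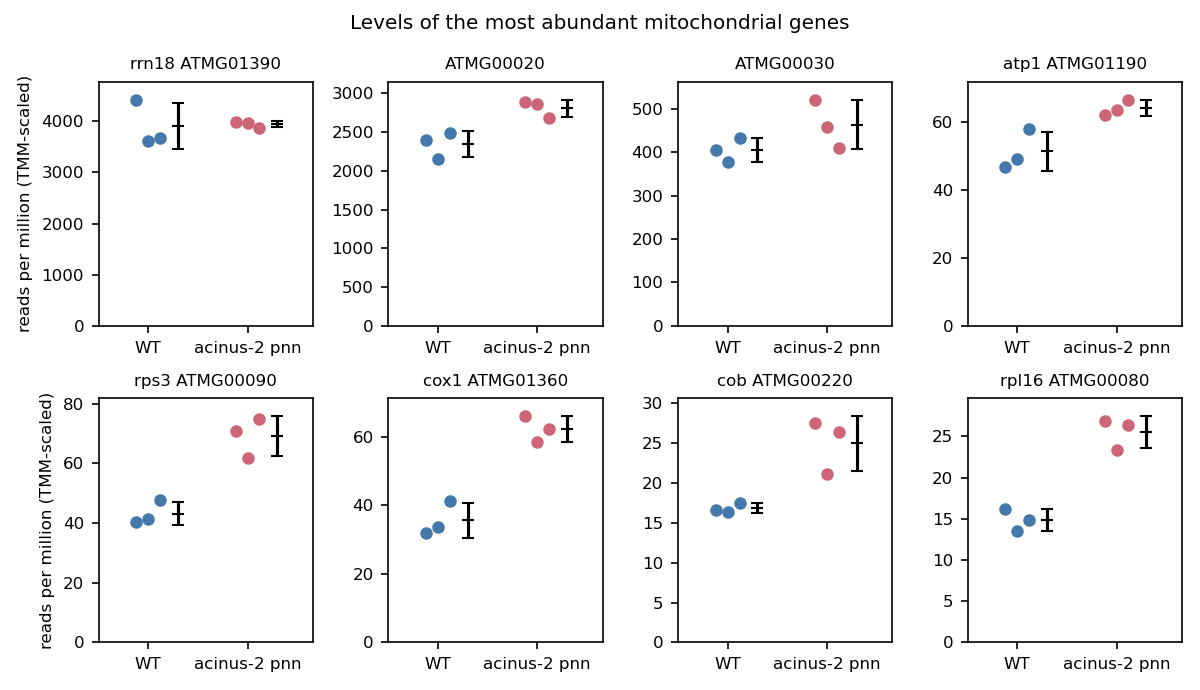
CPM with TMM scaling (y axis, from 0) of the 3 most abundant mitochondrial genes by reads and of 5 protein genes with many reads, in each WT (blue) and acinus-2 pnn (red) library, with mean and SD. rrn18 overlaps between genotypes, while cox1, rps3, cob and rpl16 lie higher in all 3 mutant libraries.

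Complex IV (cytochrome c oxidase), which passes electrons to oxygen, rose in all 3 of its mitochondrial genes, where 22.5% of all tested genes rose. The gene for its catalytic subunit, cox1, stood at 31.9, 33.6 and 41.3 CPM in WT and 66.1, 58.5 and 62.3 in acinus-2 pnn, with no overlap. Its log2 fold change was 0.80 ± 0.09 (SE), or 1.74-fold (edgeR quasi-likelihood test, adjusted p = 1.4e-05). Subunit gene cox2, whose product receives electrons from cytochrome c, stood at 5.39, 4.40 and 6.42 CPM in WT and 7.82, 8.01 and 8.70 in acinus-2 pnn. Every mutant library was above every WT library (log2 fold change 0.60 ± 0.13, edgeR adjusted p = 0.003). For cox3 (ATMG00730), the values were 8.70, 9.49 and 10.1 CPM in WT and 18.2, 14.9 and 13.5 in acinus-2 pnn, again without overlap (0.71 ± 0.11, edgeR adjusted p = 0.00026). The only mitochondrial subunit of complex III, cytochrome b (cob), stood at 16.7, 16.4 and 17.5 CPM in WT and 27.5, 21.1 and 26.3 in acinus-2 pnn. It rose by 0.57 ± 0.09 on the log2 scale (edgeR adjusted p = 0.00034), with replicate 7 the lowest of the mutant libraries.

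Of 7 genes for ribosomal proteins, 5 rose (71.4%) and none fell, where 22.5% of all tested genes rose and 23.6% fell. Their log2 fold change median was 0.70. The large-subunit gene rpl16 stood at 16.2, 13.5 and 14.8 CPM in WT and 26.9, 23.3 and 26.4 in acinus-2 pnn (log2 fold change 0.79 ± 0.08, edgeR adjusted p = 1.1e-05). The small-subunit gene rps3 stood at 40.5, 41.4 and 47.7 in WT and 71.0, 61.7 and 74.8 in acinus-2 pnn (0.68 ± 0.08, edgeR adjusted p = 2.7e-05). In both genes all mutant libraries exceeded all WT libraries. The 2 genes overlap by 134 bases in TAIR10.1, so that some reads can belong to either, and their changes are not separate measurements. For rpl2 the values were 5.87, 6.32 and 6.38 CPM in WT and 10.8, 9.27 and 11.5 in acinus-2 pnn, without overlap (0.77 ± 0.11, edgeR adjusted p = 9.1e-05). The genes rps4 and rpl5 rose by 0.71 and 0.70 on the log2 scale. For rps12 and rps7 the log2 fold changes were 0.37 ± 0.22 and 0.27 ± 0.27, and neither passed the test (edgeR adjusted p = 0.18 and 0.45). With the reads of its chromosome 2 copy added, rps12 gave 0.49 (edgeR adjusted p = 0.049). Each of these last genes had under 3 CPM in every library.

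Complex I (NADH dehydrogenase), the entry point of electrons from NADH, is represented by 14 IDs. Of these, 10 rose (71.4%) and none fell, where 22.5% of all tested genes rose and 23.6% fell. The log2 fold change median was 0.43, with a range from 0.07 to 0.99. The membrane subunit gene nad6 had the largest fold change of the 14. It stood at 1.12, 1.15 and 1.53 CPM in WT and 2.61, 2.43 and 2.58 in acinus-2 pnn, clear of each other (log2 fold change 0.99 ± 0.20, 1.98-fold, edgeR adjusted p = 0.0015). The gene nad4, another membrane subunit, stood at 8.32, 9.30 and 10.3 CPM in WT and 14.95, 13.4 and 16.2 in acinus-2 pnn, without overlap (0.66 ± 0.10, edgeR adjusted p = 0.00018). The genes nad9 and nad7, for subunits of the arm outside the membrane, rose by 0.46 ± 0.09 and 0.38 ± 0.09 on the log2 scale (edgeR adjusted p = 0.0017 and 0.0039). For nad3 (ATMG00990), with under 3 CPM in every library, the log2 fold change was 0.89 ± 0.29 (edgeR adjusted p = 0.024), and it passed the threshold in 6 of the 11 settings tried, scaling to the mitochondrial total aside. With its copy added it gave 0.68 (edgeR adjusted p = 0.059). By contrast, nad4L stood at 12.7, 11.6 and 13.7 CPM in WT and 13.8, 11.8 and 14.2 in acinus-2 pnn, with 1 mutant library within the WT range and the other mutant libraries just above it (0.07 ± 0.10, edgeR adjusted p = 0.59).

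The scattered nad genes differed between their pieces. The nad2 piece ATMG00285 stood at 2.56, 3.06 and 3.99 CPM in WT and 5.44, 5.19 and 6.99 in acinus-2 pnn (log2 fold change 0.86 ± 0.17, edgeR adjusted p = 0.0016). The nad2 piece ATMG01320 stood at 4.32, 5.02 and 5.86 in WT and 6.49, 5.39 and 6.61 in acinus-2 pnn, with overlap (0.27 ± 0.14, edgeR adjusted p = 0.12). Between 25.2% and 31.5% of the reads of ATMG01320 and 3 chromosome 2 gene models within its copy were assigned to ATMG01320. With these models added it rose by 0.44 ± 0.08 (edgeR adjusted p = 0.00089), beside 0.98 ± 0.13 for ATMG00285 with its copy (edgeR adjusted p = 5.1e-05). Of the 3 models, AT2G07808 also matches ATMG01330, a gene within an intron of ATMG01320. Both the percentage and the sum for ATMG01320 thus hold reads of an intron gene. Of the nad5 pieces, ATMG00513 rose by 0.38 ± 0.10 (edgeR adjusted p = 0.0079), while ATMG00060 gave 0.10 ± 0.09 (edgeR adjusted p = 0.39) and ATMG00665 gave 0.21 ± 0.36 (edgeR adjusted p = 0.67). The nad1 pieces ATMG01120, ATMG01275 and ATMG00516 rose by 0.72, 0.69 and 0.41 on the log2 scale, the last only just past the threshold (edgeR adjusted p = 0.049). Whether the pieces of a gene differ from each other in their change was not tested.

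Complex V (ATP synthase), which makes ATP from the proton gradient, had 3 of 6 genes that rose and none that fell, with a log2 fold change median of 0.24. The catalytic-head gene atp1 stood at 47.0, 49.3 and 58.1 CPM in WT and 62.2, 63.7 and 66.7 in acinus-2 pnn. The libraries did not overlap, although WT replicate 5 came close (log2 fold change 0.32 ± 0.07, edgeR adjusted p = 0.0038). Of the membrane and stalk subunits, atp8 rose by 0.59 ± 0.12 and ATMG00410, an ATP synthase subunit gene, by 0.37 ± 0.09 (edgeR adjusted p = 0.0014 and 0.0038). For atp4 and atp9 (ATMG01080), the values were 0.12 ± 0.08 and 0.08 ± 0.12 (edgeR adjusted p = 0.25 and 0.59), and for ATMG01170, which has no name in the sources used here, 0.15 ± 0.09 (edgeR adjusted p = 0.18).

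The 5 genes for cytochrome c maturation, whose products attach haem to c-type cytochromes, gave 1 gene that rose and none that fell, with a log2 fold change median of 0.10. This count depended on the nuclear copy described below. With the reads of a gene and its copy on chromosome 2 added, ccmFC (0.33), ccmFN1 (0.47), ccmC (0.39) and ccmFN2 (0.54) all rose (edgeR adjusted p = 0.013, 0.0041, 0.017 and 0.019), and ccmB, which has no copy, gave −0.03. The gene that rose in its own reads, ccmFC, stood at 4.70, 4.44 and 5.04 CPM in WT and 6.58, 5.53 and 6.04 in acinus-2 pnn (0.36 ± 0.12, edgeR adjusted p = 0.027). It did not overlap between genotypes, but it passed the threshold in 6 of the same 11 settings only. For ccmFN2 the log2 fold change was 0.55 ± 0.21 (edgeR adjusted p = 0.052), for ccmFN1 0.10 ± 0.18, for ccmC 0.01 ± 0.36 and for ccmB −0.03 ± 0.38. The last pair had under 2 CPM in every library, so that only large changes would have been detectable at this depth. The other IDs of the lists are not named in the sources used here. ATMG00520 stood at 9.50, 11.3 and 12.0 CPM in WT and 18.2, 14.0 and 19.3 in acinus-2 pnn, without overlap (0.64 ± 0.12, edgeR adjusted p = 0.00083). ATMG00570 gave 0.25 ± 0.21 (edgeR adjusted p = 0.35).

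The rRNA genes differed among themselves. In CPM, rrn18 stood at 4420, 3616 and 3675 in WT and 3981, 3970 and 3868 in acinus-2 pnn, with overlap (log2 fold change 0.01 ± 0.07, edgeR adjusted p = 0.90). ATMG00020 stood at 2390, 2155 and 2486 in WT and 2881, 2856 and 2676 in acinus-2 pnn, and it rose (0.26 ± 0.06, edgeR adjusted p = 0.0045). The short rrn5 was the only tested mitochondrial gene whose mutant libraries all lay below WT, at 1.79, 1.89 and 1.70 in WT and 1.51, 1.25 and 1.51 in acinus-2 pnn. That difference did not pass the test (−0.32 ± 0.20, edgeR adjusted p = 0.22). The methods speak of mRNA libraries without saying how rRNA was removed, so that levels of rRNA against messenger RNA describe these libraries only.

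Outside the role lists, 33 of 105 IDs passed the filter, with a log2 fold change median of 0.57. Of the 33, 12 rose (36.4%) and none fell, where 22.5% of all tested genes rose and 23.6% fell. The 3 with the largest change among IDs with a mean of at least 50 reads and no overlap are ATMG01130, ATMG00500 and ATMG01200. ATMG01130 stood at 6.24, 6.24 and 7.20 CPM in WT and 11.9, 10.6 and 11.9 in acinus-2 pnn (log2 fold change 0.80 ± 0.10, edgeR adjusted p = 3.8e-05). ATMG01200 stood at 12.3, 11.0 and 12.8 in WT and 19.6, 19.2 and 18.3 in acinus-2 pnn, a clear gap (0.66 ± 0.08, edgeR adjusted p = 2.8e-05). ATMG00500 rose by 0.74 ± 0.24 (edgeR adjusted p = 0.025), but up to a fraction of 0.376 of its reads in a library also counted elsewhere. It passed the threshold in 6 of the 11 settings, and without any one library other than WT replicate 5 its adjusted p was 0.051 to 0.064. ATMG00030, one of the most abundant mitochondrial RNAs, stood at 406, 378 and 432 in WT and 521, 459 and 409 in acinus-2 pnn, with overlap (0.19 ± 0.08, edgeR adjusted p = 0.063). The 4 IDs past the thresholds of the methods, named after their values were seen, are ATMG01010 (1.39), ATMG00620 (1.21), ATMG00920 (1.10) and ATMG00400 (1.06 on the log2 scale). Each had under 3 CPM in every library, and for ATMG01010 a fraction of 0.648 to 0.776 of the reads also counted elsewhere.

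**Figure D3:**
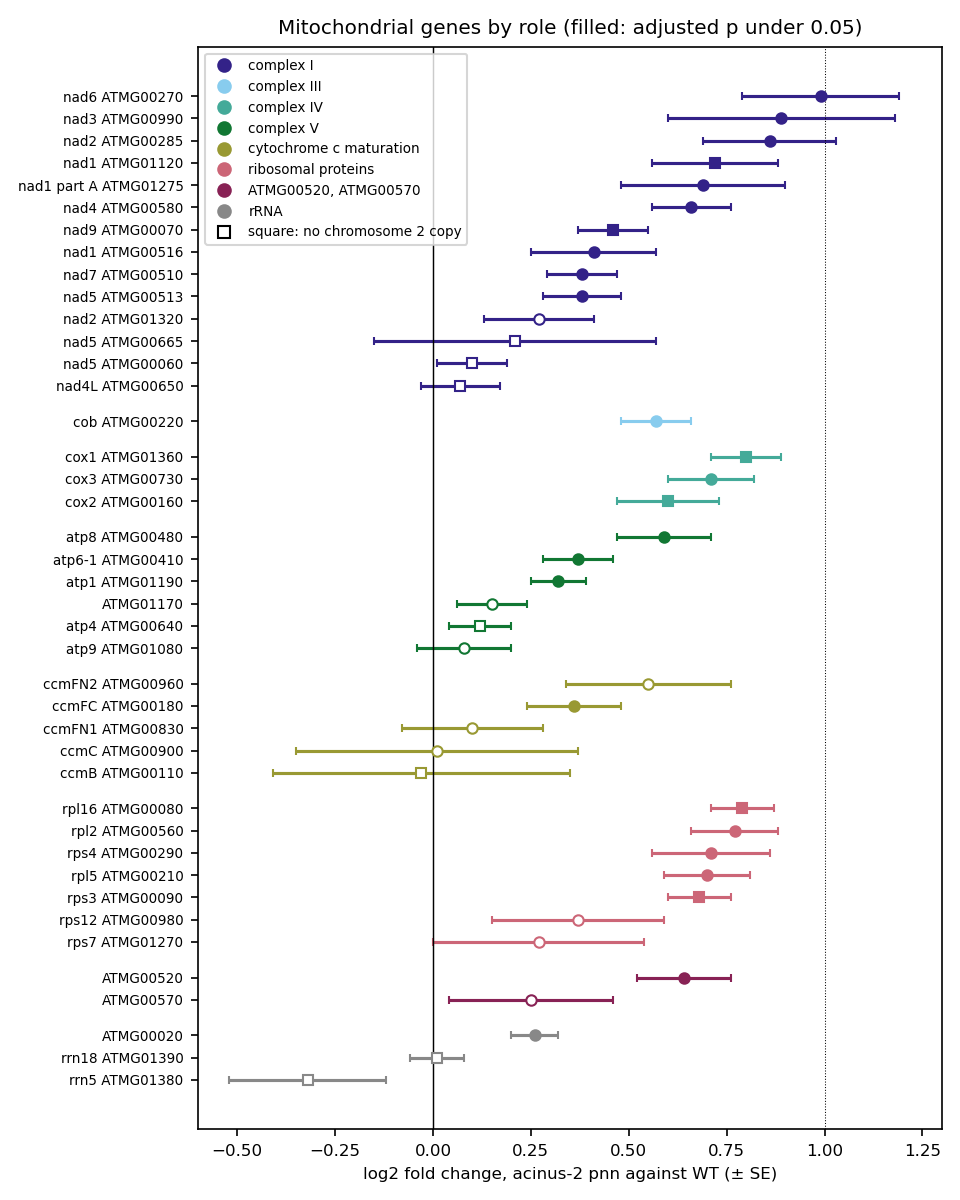
Log2 fold change of acinus-2 pnn against WT (x axis, with SE from edgeR) for the 41 mitochondrial genes with a role list, coloured by list. Filled symbols have an adjusted p under 0.05, squares have no copy on chromosome 2, circles have one or could not be placed, and the dotted line marks a 2-fold rise. Complex IV and ribosomal protein genes lie between 0.27 and 0.80, and no gene passes the threshold below 0.

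Over the 38 role-list genes other than rRNA, the median log2 fold change was 0.43. Mutant libraries lay wholly above WT for 27 of them, where this held for 27.0% of all tested genes. At an adjusted p under 0.05, 24 rose (63.2%) and none fell, where 22.5% of all tested genes rose and 23.6% fell. Of these 24, 20 were past the threshold in each of the 10 alternatives other than scaling to the mitochondrial total. The exceptions were ccmFC, nad3 and the nad1 pieces ATMG00516 and ATMG01275. ccmFC lost its call without WT replicate 2 or 4 or acinus-2 pnn replicate 6 or 12 (edgeR adjusted p from 0.058 to 0.096). ATMG00516 lost it without WT replicate 4 or 5 or acinus-2 pnn replicate 6 or 12 (0.061 to 0.21). nad3 lost it without WT replicate 4 or 5 or acinus-2 pnn replicate 12 (0.069 to 0.14), and ATMG01275 without WT replicate 5 or acinus-2 pnn replicate 7 (0.063 to 0.075). With the mitochondrial total as library size, 16 of the 24 were still past it, the median of the 38 was 0.28 and 7 of the 38 had a negative sign. These were nad4L, ATMG00060, atp4, atp9, ccmFN1, ccmC and ccmB, none of them past the threshold, and rrn18 also had a negative sign on that scale.

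A large piece of the mitochondrial genome also lies in the nucleus, on chromosome 2 (TAIR10.1, 2:3239038-3509765, 270.7 kb). It covers 72.2% of the 367808 bases of the mitochondrial genome at 99.91% identity and holds 129 gene models in the tables. Reads from the mitochondrial gene and from its copy can seldom be told apart. In 24 role-list genes with a copy, between 7.32% and 71.9% of the pair's reads were assigned to the mitochondrial ID, with a median of 41.0%. The 129 models took 0.0361%, 0.0366% and 0.0388% of the gene reads in WT and 0.0540%, 0.0456% and 0.0564% in acinus-2 pnn, without overlap (ratio 1.40, exact permutation test, p = 0.1). Of the 69 models tested, 34 rose (49.3%) and none fell, where 22.5% of all tested genes rose and 23.6% fell. The copy of cob, AT2G07727, held 469, 627 and 664 reads in WT and 919, 657 and 1011 in acinus-2 pnn, and its log2 fold change was 0.61 ± 0.09 (edgeR adjusted p = 0.00014) beside 0.57 for cob itself.

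The rise was seen in genes with no copy as well. Among role-list genes other than rRNA, 17 of 24 with a copy rose (70.8%, median log2 fold change 0.48), and 6 of 11 without one rose (54.5%, median 0.46). Of all tested genes, 22.5% rose. The genes without a copy that rose are cox1, cox2, rps3, rpl16, nad9 and the nad1 piece ATMG01120. Those without a copy that did not pass the test are nad4L, atp4, ccmB and the nad5 pieces ATMG00060 and ATMG00665. When the reads of each gene and its copy were added, 83 genes could be tested, 43 rose and the median was 0.47. The median over all genes was then 0.0, and the share of all genes that rose in that setting is not given here.

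In the introns, the reads stood out by their level rather than by a change. Intron reads were compared with the reads of both neighbouring exons, per base, so that a ratio of 1 would mean as many reads per base of intron as of exon. Pooled over libraries, the ratio ran from 0.202 to 1.6 over the 18 mitochondrial introns, with a median of 0.471. For 54727 nuclear introns whose exons had read numbers in the same range, the median was 0.014 and the 95th percentile 0.138, and 97.1% lay below the lowest mitochondrial value. The 22 chloroplast introns had a median of 0.410. According to the methods, the RNA was treated with DNase before the libraries were made. What part DNA, introns already cut out and unspliced transcripts take in these intron reads was not tested. Reads that join exons count towards the exons. They were counted for 11.1% of the mitochondrial introns and 98.1% of these nuclear introns, so the exon counts of the 2 sets are not alike. What part this takes in the gap between the ratios was not tested.

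Spliced reads, by contrast, were nearly absent. Reads that join the exons were counted for 2 of the 18 introns (11.1%), against 98.1% of the nuclear introns with exon reads in the same range and 27.3% of the chloroplast introns. For cox2 there were 3, 5 and 9 such reads in WT and 8, 9 and 5 in acinus-2 pnn. For nad1 intron 2 there were 10, 8 and 4 in WT and 9, 7 and 8 in acinus-2 pnn. In both introns the genotypes overlapped. Both start with GTGCG and end with AT, as shown above. No spliced read was counted for nad4 intron 1 and ccmFC intron 1, which also start with GTGCG but end with AC. None was counted for rps3 either, which starts with GGGCG. Nor was any counted for nad5 intron 4 (ATMG00060), which starts with GTGCG and ends with AC. Its exons held 228 to 376 reads per library, against 101 to 229 for those of cox2. The exons around these cox2, nad1, rps3 and nad5 introns have no copy on chromosome 2, whereas those of nad4 and ccmFC do. Of the reads of these pairs, 21.6% to 24.9% were on nad4 and 33.8% to 36.9% on ccmFC. What part the end letters and the copy take in these counts was not tested. The mapping for gene expression removed reads over splice sites of non-standard letters, and whether this setting was used for the junction tables is not stated. With no spliced read counted, splicing efficiency in the usual sense could not be measured for the other 16 introns. Only the ratio of intron to exon reads is compared.

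No mitochondrial intron was called higher in acinus-2 pnn, and 1 was called lower at an adjusted p under 0.05, where 0.967% and 0.192% of 25534 introns tested were called in these directions and 1.16% in either. The count of 0 higher was also 0 at an unadjusted p under 0.05 and 0 with DESeq2. The median log2 change of the ratio was −0.07 over the 18 introns and −0.03 over all introns, with 12 negative and 6 positive. Reads per intron ran from 40 to 797 per library, and reads on the exons from 48 to 1968. The standard errors of the 18 log2 changes lay between 0.18 and 0.27, which limits what could be detected.

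The 1 intron called is that of rpl2, a gene with a copy on chromosome 2. Between 44.4% and 51.5% of the reads of rpl2 and its copy were assigned to rpl2. The intron held 99, 140 and 153 reads in WT and 123, 106 and 121 in acinus-2 pnn. Per base its ratio to the exons was 0.609, 0.574 and 0.605 in WT and 0.351, 0.375 and 0.270 in acinus-2 pnn, without overlap (log2 change −0.86 ± 0.22, edgeR adjusted p = 0.034). The intron reads themselves overlapped between genotypes, while the exon reads were higher in acinus-2 pnn. The call was lost without any one of the 6 libraries (edgeR adjusted p from 0.05 to 0.22) and with DESeq2 (adjusted p = 1.0), and the intron is 1552 bases long in the deposited model but 1651 in TAIR10.1.

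For rps3, whose exon reads also rose, the ratio was 0.519, 0.574 and 0.526 in WT and 0.414, 0.351 and 0.407 in acinus-2 pnn. These groups did not overlap, but the change did not pass the test (−0.47 ± 0.18, edgeR adjusted p = 0.27). The intron of cox2 gave ratios of 0.721, 0.973 and 0.684 in WT and 0.715, 0.537 and 0.593 in acinus-2 pnn, with overlap (−0.35 ± 0.22, edgeR adjusted p = 0.59). The intron of ccmFC gave 0.643, 0.744 and 0.524 in WT and 0.688, 0.522 and 0.605 in acinus-2 pnn, also with overlap (−0.06 ± 0.27, edgeR adjusted p = 0.97).

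Among the introns of nad genes, nad4 intron 1 had the highest ratio. It gave 1.87, 1.42 and 1.40 in WT and 1.62, 1.45 and 1.85 in acinus-2 pnn. As the reads were assigned, it thus held more reads per base than its exons in every library. Of the reads of nad4 and its copy on chromosome 2, 21.6% to 24.9% were on nad4. The first intron of nad2 came next, at 1.22, 1.05 and 0.970 in WT and 1.39, 0.976 and 1.06 in acinus-2 pnn. In both the genotypes overlapped, with log2 changes of 0.10 and 0.09. Of the reads of the nad2 piece ATMG00285 and its copy on chromosome 2, 27.1% to 33.9% were on ATMG00285. The lowest mean ratio was that of nad7 intron 4, 0.210 ± 0.0448 in WT and 0.198 ± 0.0156 in acinus-2 pnn (SD, n = 3). Of the reads of nad7 and its copy on chromosome 2, 29.6% to 31.8% were on nad7. As the reads were assigned, introns of this 1 transcript differed several-fold in their ratio. The 4 introns of nad7 had WT means of 0.345, 0.644, 0.389 and 0.210 for introns 1 to 4. The log2 changes of these 4 were 0.44, 0.14, −0.34 and −0.08, none past the test. For intron 3 the genotypes did not overlap, at 0.484, 0.316 and 0.366 in WT and 0.303, 0.292 and 0.305 in acinus-2 pnn (edgeR adjusted p = 0.62). The other nad4 introns, 2 and 3, had WT means of 0.540 and 0.589 and log2 changes of −0.16 and −0.17.

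The remaining introns lay in the pieces of scattered genes. The WT means were 0.350 for nad5 intron 4, 0.476 for nad5 intron 1, 0.471 for nad1 intron 2, 0.548 for nad2 intron 3 and 0.483 for nad2 intron 4, and the log2 changes lay between −0.30 and 0.01. Of these, nad5 intron 4 did not overlap, at 0.395, 0.339 and 0.314 in WT and 0.295, 0.278 and 0.271 in acinus-2 pnn (−0.30 ± 0.21, edgeR adjusted p = 0.63). The fourth intron of nad1 (ATMG00516) holds another gene, ATMG00520, whose reads are counted in both. The rest of its intron reads were 99, 156 and 146 in WT and 219, 158 and 290 in acinus-2 pnn, with ratios of 0.222, 0.264 and 0.305 and of 0.292, 0.315 and 0.42, which overlap. The fourth intron of nad2 likewise includes the reads of ATMG01330.

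**Figure D4:**
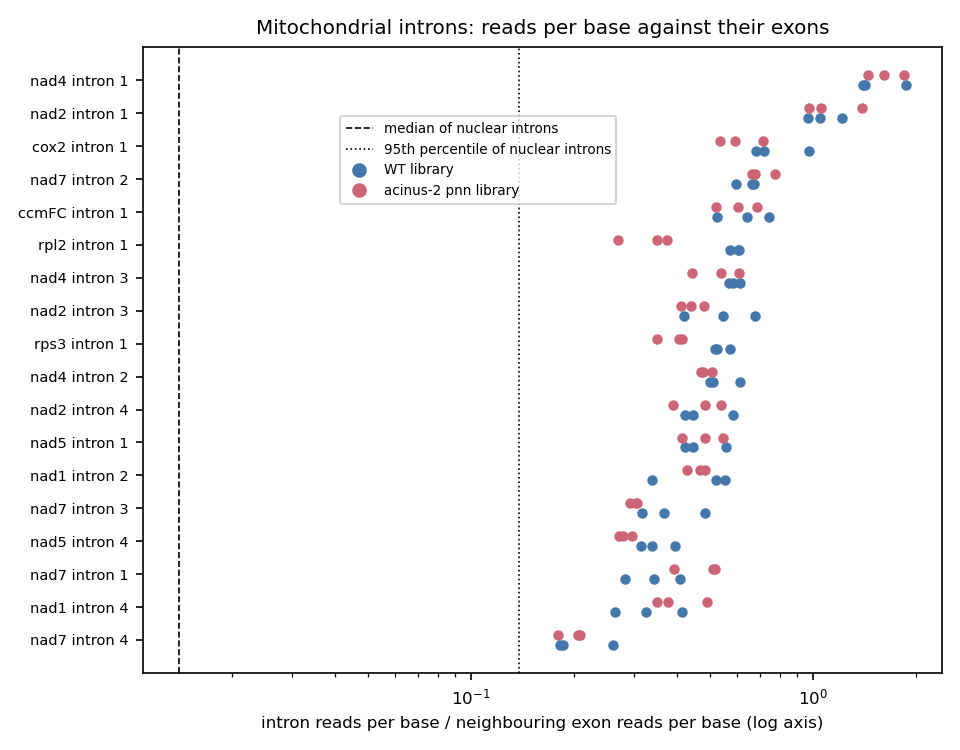
Intron reads per base divided by the reads per base of both neighbouring exons (x axis, log scale) for the 18 mitochondrial introns, in each WT (blue) and acinus-2 pnn (red) library. The dashed line marks the median of nuclear introns, 0.014, and the dotted line their 95th percentile, 0.138. Every mitochondrial intron lies to the right of both lines, and for most of them the genotypes overlap.

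Exons of 1 gene did not all differ by the same amount. In nad4, exon 2 held 62, 84 and 101 reads in WT and 152, 122 and 180 in acinus-2 pnn, and its ratio of mutant to WT, scaled to the gene reads of each library, was 1.93. Exon 1 of nad4 held 23, 53 and 55 reads in WT and 46, 40 and 50 in acinus-2 pnn, a ratio of 1.12. In nad7 the ratios of exons 1 to 5 were 0.924, 1.05, 1.40, 1.54 and 1.33. These are numbered by position in the deposited tables, some exons hold few reads, and differences between exons of 1 gene were not tested.

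The nuclear genes that serve mitochondria were compared in 3 lists. In the list of alternative respiration, whose enzymes let electrons bypass complexes of the main chain, and of genes known to answer to mitochondrial stress, 4 of 12 tested genes were called higher and 1 lower at the thresholds of the methods, where 4.29% of all tested genes were called higher and 4.88% lower. The alternative oxidase gene AOX1C stood at 0.213, 0.230 and 0.187 CPM in WT and 1.65, 1.84 and 1.56 in acinus-2 pnn (log2 fold change 2.97, edgeR adjusted p = 7.1e-06). The alternative NADH dehydrogenase gene NDB4 stood at 0.160, 0.383 and 0.299 in WT and 4.30, 4.32 and 4.67 in acinus-2 pnn (3.90, edgeR adjusted p = 1.5e-07). For both, the WT libraries held few reads. AT2G21640 stood at 2.77, 2.11 and 2.09 in WT and 9.23, 9.17 and 9.50 in acinus-2 pnn (2.02, edgeR adjusted p = 1.8e-07).

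The AAA-type ATPase gene BCS1 (AT3G50930) stood at 6.94, 9.19 and 6.46 CPM in WT and 30.2, 38.3 and 42.3 in acinus-2 pnn (log2 fold change 2.29, edgeR adjusted p = 1.3e-07). The dehydrogenase gene NDA1 was the 1 called lower, at 64.1, 66.4 and 61.4 in WT and 28.3, 24.7 and 23.7 in acinus-2 pnn (−1.33, edgeR adjusted p = 4.5e-08). The genotypes did not overlap for any of these 5 genes. The main alternative oxidase gene of the list, AOX1A, stood at 26.6, 28.9 and 29.4 in WT and 32.7, 35.8 and 32.8 in acinus-2 pnn, a small rise without overlap (0.25, edgeR adjusted p = 0.0079).

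In the other lists no gene was called at these thresholds. At an adjusted p under 0.05, 22.5% of all tested genes rose and 23.6% fell. Of 20 nuclear genes for mitochondrial transcription and splicing, 7 rose (35.0%) and 1 fell at that p, with a log2 fold change median of 0.19. The list includes the RNA polymerase gene MGP3 (AT1G68990), at 0.22 (edgeR adjusted p = 0.0098). Of 33 nuclear genes for respiratory chain subunits, 10 rose (30.3%) and 3 fell, with a median of 0.07, and CI51, a complex I subunit, gave 0.09 (edgeR adjusted p = 0.13). The mitochondrial genes for subunits of complexes I, III, IV and V had list medians of 0.43, 0.57, 0.71 and 0.24. The difference between the nuclear and the mitochondrial lists was not tested.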

How the data were processed

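Reads were mapped by the authors to TAIR10, and their tables were made with RACKJ at default settings. The deposited gene, exon and intron tables hold expected counts, in which a read counted for several genes is split. The junction tables that the authors deposited hold counts of spliced reads. The deposited RPKM divides by exon length and mapped reads. For each feature the authors also deposited the fraction of its reads counted for other genes or places as well. For cob, whose exons lie wholly in the chromosome 2 copy, this fraction was 0.0 in every library and the counts were whole numbers. Neither the splitting nor the fraction thus marks reads that also fit that copy. The submitters' processing notes name STAR and DESeq2. Strand is not stated, so that reads of overlapping or antisense genes cannot be told apart, and PCR reads are not independent molecules.

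Expected counts were rounded and tested with edgeR 4.0.16 (R 4.3.3; filterByExpr, TMM, quasi-likelihood test, Benjamini-Hochberg adjustment). Introns needed 10 reads over 6 libraries and 10 exon reads in each, with 1 term per library. Copies were found with BLAST 2.17.0, at least 98% identity over 500 bases. Names came from RefSeq TAIR10.1 by exon lengths (32 of 41 role-list genes) or from its notes (5), and 4 have no name. On simulated 4-fold changes, 199 of 200 genes and 178 of 199 introns were recovered. Those changes are larger than any seen here in role-list genes or mitochondrial introns. The recovery thus does not tell how well changes of the size reported could be detected. Members and lists were chosen with earlier results of these data known. Named were all role-list genes, outside the lists the 3 largest changes per direction (mean of at least 50 reads, no overlap), the introns of the role genes, and, in each nuclear list, called genes and the first member. The alternatives were other scalings, filters, denominators, DESeq2 1.42.0 and leaving out each library. Cultures behind the replicates are not described further.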

Additional observations from a re-analysis of the deposited data

Results flagged for a closer look

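In cox2, 48 spliced reads joined the exons 1 base away from the exon ends of the deposited model, 3, 7 and 9 in WT and 9, 13 and 7 in acinus-2 pnn. They come from the table of exact splice positions, which the comparisons do not use and which is not separate from the spliced reads of cox2 given above, and were seen in all 6 libraries.

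ATMG00020 had 366 reads of 1 junction leaving the gene in acinus-2 pnn replicate 6 and 0 in each other library. ATMG00030 had 84 reads of 1 such junction in WT replicate 4 and 0 in each other library. Both junctions were seen in data outside the main measurement and differ between libraries of the same genotype.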

How the results depend on the processing

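No paired analysis was possible because the genotypes share no replicate numbers (2, 4 and 5 against 6, 7 and 12). The count of 4 mitochondrial genes past the thresholds of the study's methods became 2 with DESeq2, 1 with the mitochondrial total as library size, 2 without a filter on low counts, 37 at an adjusted p under 0.05 with no fold, and 0 to 5 when a library was left out. The count that rose at an adjusted p under 0.05 was 25 to 43 in the settings run and 30 to 37 when a library was left out. The share of all genes that rose in each of these settings is not given. The count that fell was 0, and 0 to 1 when a library was left out (ATMG00820 without WT replicate 2). The ratio of shares, 1.11, was 1.29 without rRNA genes and 1.09 to 1.15 when a library was left out. The intron count of 1 became 0 with spliced reads or all reads of the gene as denominator, 0 with DESeq2, and 0 to 0 when a library was left out. The cause of these differences was not tested.

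Signs turned only in genes and introns that were not called. With the mitochondrial total as library size, the log2 fold change was −0.05 for ATMG00060, −0.03 for atp4 (ATMG00640), −0.08 for nad4L (ATMG00650), −0.05 for ccmFN1 (ATMG00830), −0.14 for ccmC (ATMG00900), −0.06 for atp9 (ATMG01080) and −0.13 for rrn18 (ATMG01390). DESeq2 gave −0.0 for ccmC (ATMG00900). When a library was left out, ccmB (ATMG00110) ran from −0.34 to 0.48, ATMG00665 from −0.01 to 0.49, ccmC (ATMG00900) from −0.31 to 0.27, atp9 (ATMG01080) from −0.02 to 0.23 and rrn18 (ATMG01390) from −0.04 to 0.11. For intron ratios, all gene reads as denominator gave −0.0 for nad7 intron 1 (0.44 with neighbouring exons), 0.03 for nad7 intron 4, 0.0 for nad4 intron 2 and 0.12 for nad2 intron 4, and spliced reads gave 0.54 for nad1 intron 2. When a library was left out, ccmFC intron 1 ran from −0.2 to 0.08, nad2 intron 1 from −0.05 to 0.18, nad7 intron 4 from −0.19 to 0.1, nad5 intron 1 from −0.1 to 0.14, nad1 intron 2 from −0.22 to 0.11 and nad2 intron 4 from −0.1 to 0.11. Of the other single-gene and single-intron values, 566 kept direction and side of the threshold, 41 lost the threshold and 7 passed it.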
